A study of Mus musculus with 19 samples.

Results

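The genes described here encode the machinery that copies DNA in S phase: 50 genes for origin licensing, helicase activation, the sliding clamp and its loader, primase and polymerases, single-strand binding, Okazaki fragment joining, deoxynucleotide supply, E2F activators and the copying of chromatin marks. They were taken by symbol, from a list made with earlier results of these data known, out of an expression table of 29861 gene rows. All 50 were present, and all 50 were among the 12500 genes that reached a TPM of 1 in at least 6 lines and entered the tests; TPM is the length-corrected share of a library's transcripts that a gene takes. The table covers 19 organoid lines of mouse pancreatic ducts, which are 3-dimensional epithelial cultures. Of these, 7 normal lines came from ducts of wild-type mice, and 6 PanIN lines from ducts of pancreas that held mouse pancreatic intraepithelial neoplasia, a precursor lesion, in mice with Pdx1-Cre, a Cre recombinase driven in the pancreatic lineage. A further 6 tumor lines were made from pancreatic adenocarcinomas, in mice with Pdx1-Cre and an allele of Trp53, R172H, that Cre switches on. By the labels no normal or PanIN line carries that allele, so tumor origin and the Trp53 allele cannot be told apart. Every mouse had the C57B6/J background, and every line grew in Matrigel domes in the same medium, which holds EGF, FGF-10, noggin, R-spondin and gastrin and the TGF-beta receptor inhibitor A83-01. All values are therefore from cultured lines, not from ducts or tumors in the animal. No label says whether any lines share a mouse, so the tests speak of spread among lines, which may be partly technical.

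Replication begins when the origin recognition complex, with Cdc6 and Cdt1, loads the Mcm2-7 helicase onto DNA in G1. In S phase the kinase Cdc7-Dbf4 and the GINS complex activate that helicase, primase with DNA polymerase alpha starts each strand, and polymerases epsilon and delta extend the strands on the PCNA clamp. Many of these genes are transcribed around the G1/S boundary under the E2F factors, which the retinoblastoma protein restrains, so their RNA is widely read as a mark of cycling cells. In RNA from whole cultures, fewer cycling cells and less replication RNA per cell cannot be told apart.

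Because many of these genes are transcribed under the E2F factors, RefSeq promoter windows were searched for E2F letters. The windows (mouse build GRCm38.p6) ran from 250 bases before to 50 after each start. The letters were TTTCCCGC, TTTCGCGC, TTTGCCGC or TTTGGCGC on either strand, with overlapping matches allowed. The authors' own build was mm9, so these coordinates belong to RefSeq alone. A window was found for 42 of the 50 members, and 16 of the 42 (38.1%) held at least 1 match in some window, against 2.6% of all 27025 genes in the table. By window, 16 of 53 member windows (30.2%) and 2.26% of all 32851 had a match. Member windows were richer in G and C (median 62.3% against 52.7%), and of the windows with a GC content of 54.7% to 65.7%, 3.75% had a match. The letters CCAAT, the NF-Y box, were in windows of 57.1% of members and 41.1% of all genes, and TTTGAA, the core of the cell cycle homology region, in 16.7% and 20.2%. A match is a string of letters and was not tested as a bound site.

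The 150 bases before the start are shown for 5 genes, with the E2F letters in capitals: Mcm6, which followed the other members most closely across lines, Cdc6 and Pola1 as typical members, and Orc3 and Rfc3, which moved little although their windows hold the letters. In Mcm6 the first capital block is a pair of overlapping matches on opposite strands.
Mcm6 (chr1:128359706-128359855, minus strand): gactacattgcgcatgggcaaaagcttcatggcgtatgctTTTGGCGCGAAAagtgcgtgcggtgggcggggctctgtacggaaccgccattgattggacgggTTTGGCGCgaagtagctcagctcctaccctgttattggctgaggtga
Cdc6 (chr11:98908001-98908150, plus strand): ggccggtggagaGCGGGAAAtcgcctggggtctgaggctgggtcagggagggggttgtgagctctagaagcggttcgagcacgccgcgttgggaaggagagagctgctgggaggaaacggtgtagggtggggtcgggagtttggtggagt
Pola1 (chrX:93632156-93632305, minus strand): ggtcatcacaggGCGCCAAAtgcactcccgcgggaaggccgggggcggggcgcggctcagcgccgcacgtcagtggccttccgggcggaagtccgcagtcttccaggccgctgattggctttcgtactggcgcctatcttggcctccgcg
Orc3 (chr4:34614943-34615092, minus strand): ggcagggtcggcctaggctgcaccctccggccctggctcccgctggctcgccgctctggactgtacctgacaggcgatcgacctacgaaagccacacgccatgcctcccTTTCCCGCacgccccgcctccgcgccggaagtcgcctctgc
Rfc3 (chr5:151651209-151651358, minus strand): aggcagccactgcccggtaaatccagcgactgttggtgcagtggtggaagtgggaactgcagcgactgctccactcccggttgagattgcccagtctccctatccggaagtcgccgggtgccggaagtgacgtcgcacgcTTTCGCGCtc
The letters were in 7 of the 12 matched licensing genes (Mcm3, Mcm5, Mcm6, Mcm7, Cdc6, Cdt1 and Orc3) and in 4 of the 7 matched polymerase genes (Pola1, Pold1, Pold3 and Pole2). Gins3, Rfc3, Lig1, E2f2 and Uhrf1 had them too, and none of the matched RPA or deoxynucleotide genes did.

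Between 11938 and 12437 genes reached 1 TPM per line, and the depth is unknown because TPM keeps none. The 10 duct markers were all present, with a summed TPM of 7694 to 12495 in normal, 6822 to 9480 in PanIN and 6241 to 7857 in tumor lines. Fibroblast, endothelial and endocrine marker sums were at most 0.11, 0.1 and 0.1 TPM, with Col3a1, Lum, Ins1, Ins2, Gcg and Ppy at 0 in every line. The 6 immune markers summed to 4.41 to 8.28 TPM in normal, 2.75 to 3.65 in PanIN and 1.49 to 3.94 in tumor lines, with Cd3e at 0 and Ptprc at most 0.09. Immune sums were thus lower in every tumor line than in any normal line. Duct sums had a lower median in tumor lines (6535 against 8713 TPM in normal) with overlapping ranges. Of the 10 duct markers, 4 had positive and 6 negative changes from normal to tumor lines. Of these, 2 were called lower and 0 higher, where 14.4% of all genes were called lower. The part of these markers in the results was not tested. The 6 acinar markers summed to 0.79 to 2.37 TPM over all lines, with Cela2a and Pnlip at 0. A set of 11 expressed rows that the authors left out of their own comparisons took 16.3% to 25.4% of all TPM in tumor lines and 22.6% to 28.6% in the others. Those rows lower the TPM of every other gene in a line, and a fit rescaled without them is given with the tumor comparison.

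Some lines stood apart in these genes. Normal 11 had the lowest TPM of the 7 normal lines in 44 of the 50 genes, PanIN 6 the highest of the PanIN lines in 48, and tumor 4 the lowest of the tumor lines in 48. The median over members of log2(TPM + 1) minus the gene's mean over all lines was -0.69 in normal 11, against -0.33 to 0.10 in the other normal lines. It was 0.33 in PanIN 6, against -0.45 to -0.13 in the other PanIN lines, and -0.15 in tumor 4, against 0.17 to 0.67 in the other tumor lines. Normal 11 also had the highest summed duct and immune markers of the normal lines, and Csf1r, a macrophage receptor gene, at 5.57 TPM; the part of these in its low replication genes was not tested. The deposited column names carry 3 series of identifiers, whose meaning the labels do not give: normal 5, 6 and 7, PanIN 1, 2 and 3 and tumor 4 share the first. In PanIN lines the first series is also the 3 females, so sex and series cannot be told apart there.

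**Figure D1:**
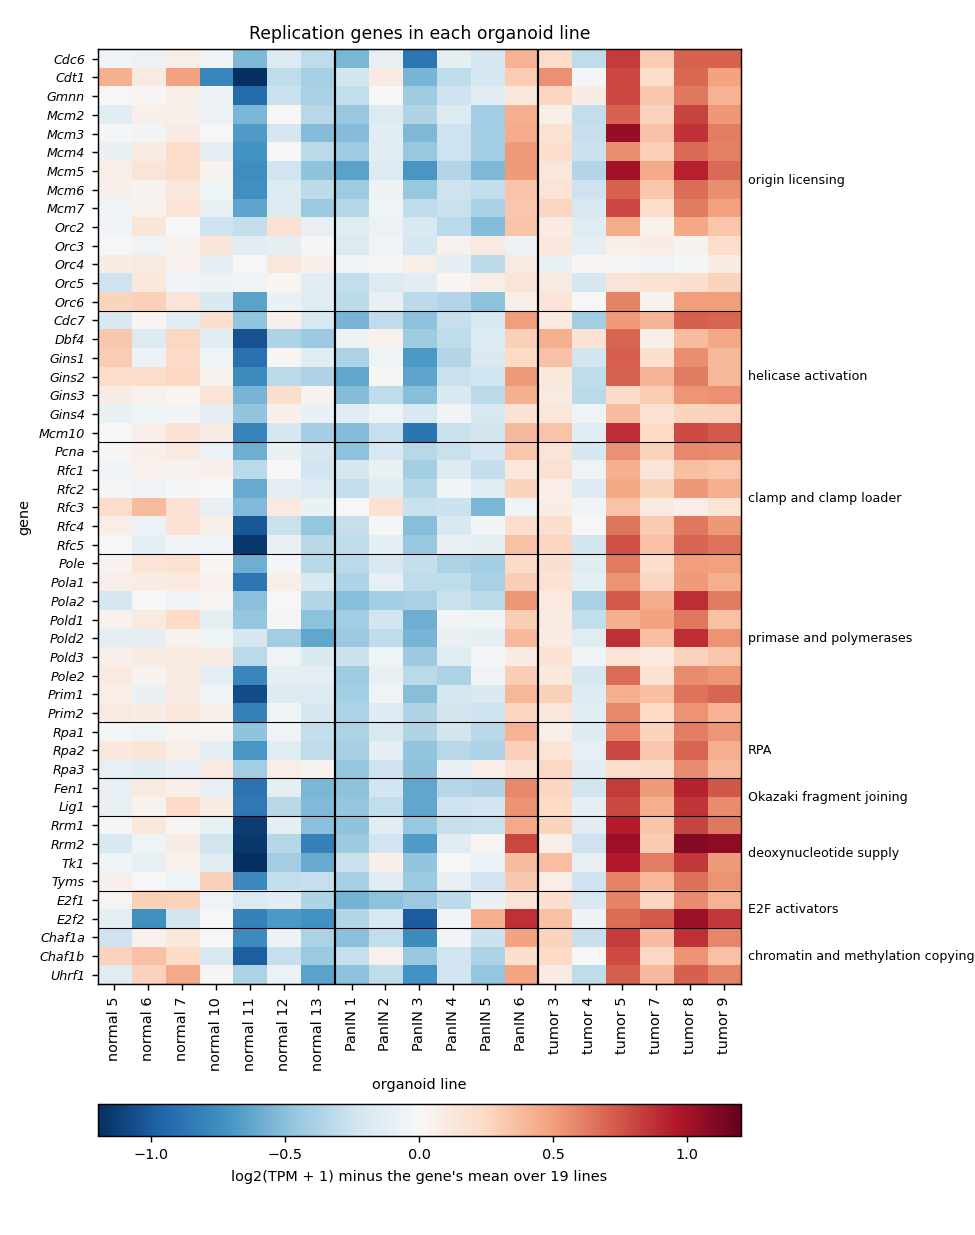
Each cell is log2(TPM + 1) minus the gene's mean over the 19 lines, for the 50 genes (rows, by role) in each organoid line (columns, by group), with colours ending at 1.2 on either side. Most rows share 1 pattern: low in normal 11, high in PanIN 6 and in 5 of the 6 tumor lines, with tumor 4 close to the normal lines, while Orc3 and Orc4 stay near 0 throughout.

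The levels of the 50 genes spanned from E2f2, at 0.84 to 6.54 TPM over the 19 lines, to Pcna, at 209 to 469 TPM. Pcna encodes the sliding clamp that holds polymerases on DNA, and it was followed in mean TPM by the helicase subunits Mcm6 (79.3 to 218 TPM) and Mcm7 (66.0 to 179 TPM).

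Between normal and tumor lines 34 of the 50 genes rose, 0 fell and 16 did not pass, at a Benjamini-Hochberg adjusted limma p under 0.05 over all 12500 genes. Of all genes tested, 17.8% were called higher and 14.4% lower in the same comparison (32.2% in all). The median change over the 50 was 0.48 on the log2(TPM + 1) scale, from -0.05 for Orc4 to 1.07 for E2f2, and 49 of the 50 values were positive. Over all genes the median was 0.04. Group ranges overlapped for every member except Gmnn, the 1 member that lay wholly higher in tumor lines, as 2.9% of all genes did; 0 lay wholly lower, against 4.36% of all genes.

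Among the origin licensing genes, 9 of 14 rose in tumor lines. Mcm6, a subunit of the replicative helicase, had 79.3, 128 and 146 TPM as the lowest, median and highest of the normal lines, 96.6, 110 and 169 in PanIN, and 112, 182 and 218 in tumor lines. It was 1.43-fold higher in tumor than in normal lines (log2 change 0.51 ± 0.17 (SE), adjusted p = 0.0250), with only tumor 4 inside the normal range. Gmnn encodes geminin, which binds Cdt1 and keeps origins from being licensed again. Its TPM was 34.8, 63.9 and 70.3 in normal, 49.5, 58.7 and 73.2 in PanIN and 71.2, 86.8 and 117 in tumor lines. Every tumor line lay above every normal line, though narrowly (lowest tumor line 71.2 TPM, highest normal line 70.3 TPM). The fold between the groups was 1.56 (log2 change 0.64 ± 0.15 (SE), adjusted p = 0.0039). The loader genes Cdt1 and Cdc6 rose 1.65-fold and 1.49-fold, and the other subunits Mcm2, Mcm3, Mcm4, Mcm5 and Mcm7 rose between 1.39-fold and 1.58-fold.

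The 5 members that encode subunits of the origin recognition complex, which marks origins before licensing, were the exception within this group. None of Orc2, Orc3, Orc4, Orc5 and Orc6 passed. Orc1, a further subunit gene of the complex, is not a member. Its mean was 5.66 TPM in normal (3.4 to 7.41), 4.95 in PanIN and 8.14 in tumor lines (4.61 to 12.11). Orc4 had 28.9, 32.9 and 34.6 TPM in normal, 25.03, 30.7 and 34.0 in PanIN and 29.4, 31.3 and 33.4 in tumor lines, so that the tumor range lay within the normal one. Its log2 change between tumor and normal lines was -0.05 ± 0.07 (SE), with an adjusted p of 0.556. Orc3 changed by 0.09 (adjusted p = 0.341), while Orc6 (0.34, adjusted p = 0.0678) and Orc2 (0.26, adjusted p = 0.124) had larger values that did not pass. Whether the 5 Orc members differ from the other licensing genes was not tested.

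Of the 7 helicase activation genes, Dbf4, Gins4 and Mcm10 rose and the other 4 had positive changes that did not pass. Dbf4, the regulatory subunit of the Cdc7 kinase, stood at 27.6, 51.6 and 72.8 TPM in normal, 42.6, 53.5 and 70.5 in PanIN and 60.8, 76.6 and 94.4 in tumor lines. The normal and tumor ranges overlapped, and the fold was 1.51 (log2 change 0.59 ± 0.18 (SE), adjusted p = 0.0162). Mcm10, which joins the active helicase and helps to recruit polymerase alpha, had 8.75, 16.03 and 18.1 TPM in normal, 8.21, 13.1 and 21.1 in PanIN and 14.4, 23.9 and 30.4 in tumor lines. Its fold was 1.55 (log2 change 0.63 ± 0.20 (SE), adjusted p = 0.0222). Gins4, a GINS subunit, rose less, from 33.3, 44.1 and 48.7 TPM in normal to 44.9, 54.7 and 60.5 in tumor lines, with 40.6, 43.7 and 52.7 in PanIN (1.24-fold, log2 change 0.31 ± 0.09 (SE), adjusted p = 0.0120). Gins3, another subunit, had 3.66, 6.14 and 6.96 TPM in normal, 3.79, 4.54 and 8.24 in PanIN and 4.48, 7.31 and 9.04 in tumor lines, and it did not pass (log2 change 0.23, adjusted p = 0.287). The remaining GINS genes Gins1 and Gins2 and the kinase gene Cdc7 changed by 0.42, 0.43 and 0.44, with adjusted p between 0.0694 and 0.110.

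Of the 6 clamp and clamp loader genes, 5 rose. Pcna had 209, 299 and 338 TPM in normal, 223, 267 and 395 in PanIN and 271, 419 and 469 in tumor lines. All tumor lines but tumor 4 lay above the highest normal line, and the fold was 1.34 (log2 change 0.42 ± 0.14 (SE), adjusted p = 0.0304). Rfc5, a small subunit of the loader that opens the clamp, had 31.6, 67.6 and 71.4 TPM in normal, 52.2, 66.1 and 91.8 in PanIN and 61.5, 103 and 123 in tumor lines. It rose 1.59-fold (log2 change 0.67 ± 0.19 (SE), adjusted p = 0.0115). Rfc1, the large subunit, rose 1.23-fold (log2 change 0.30 ± 0.09 (SE), adjusted p = 0.0230), from 33.6, 42.2 and 44.2 TPM in normal to 40.7, 50.9 and 57.1 in tumor lines, with 31.7, 37.3 and 46.6 in PanIN. Rfc4 and Rfc2 rose 1.52-fold and 1.32-fold. Rfc3 was the one subunit that did not pass (log2 change 0.10, adjusted p = 0.575), at 33.1, 51.9 and 63.0 TPM in normal, 32.5, 43.3 and 54.7 in PanIN and 47.0, 51.6 and 61.3 in tumor lines. Rfc3 forms the loader with the 4 other subunits, and its highest normal line was above its highest tumor line.

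The primase and polymerase genes had 5 of 9 called. Prim1, the catalytic subunit of primase, had 24.2, 49.3 and 55.8 TPM in normal, 36.2, 45.5 and 69.1 in PanIN and 46.8, 68.9 and 84.9 in tumor lines, a fold of 1.48 (log2 change 0.57 ± 0.18 (SE), adjusted p = 0.0224). Pold2, an accessory subunit of polymerase delta, had 26.2, 37.5 and 41.9 TPM in normal, 27.4, 35.3 and 53.8 in PanIN and 36.9, 56.2 and 76.1 in tumor lines. It rose 1.57-fold (log2 change 0.65 ± 0.17 (SE), adjusted p = 0.0088), with overlapping ranges. Pole, the catalytic subunit of the leading strand polymerase, rose 1.31-fold (log2 change 0.39 ± 0.14 (SE), adjusted p = 0.0425), from 9.89, 15.6 and 17.6 TPM in normal to 13.8, 19.9 and 24.2 in tumor lines, with 11.3, 12.2 and 18.2 in PanIN. Pold3, a further delta subunit, had 26.8, 35.2 and 36.6 TPM in normal, 24.8, 31.6 and 36.1 in PanIN and 32.9, 38.1 and 42.9 in tumor lines and did not pass (log2 change 0.20, adjusted p = 0.101). Pola2 and Pole2 also rose, 1.47-fold and 1.35-fold. Pola1, Pold1 and Prim2 changed by 0.39, 0.38 and 0.40, and Prim2 missed the threshold narrowly (adjusted p = 0.05004).

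All 3 genes of replication protein A, the trimer that coats single-stranded DNA, rose. Rpa2 had 22.1, 33.8 and 40.5 TPM in normal, 26.0, 28.5 and 44.9 in PanIN and 34.1, 47.9 and 64.4 in tumor lines (1.43-fold, log2 change 0.52 ± 0.16 (SE), adjusted p = 0.0193). Rpa3 had 47.2, 59.3 and 68.2 TPM in normal, 45.2, 56.6 and 71.6 in PanIN and 57.7, 75.1 and 94.5 in tumor lines (1.25-fold, log2 change 0.33 ± 0.12 (SE), adjusted p = 0.0461), and Rpa1 rose 1.35-fold. Both Okazaki fragment genes rose as well. Fen1, the nuclease that trims the flaps between fragments, had 20.7, 36.5 and 42.2 TPM in normal, 25.01, 30.5 and 58.9 in PanIN and 33.0, 61.1 and 74.9 in tumor lines (1.66-fold, log2 change 0.73 ± 0.21 (SE), adjusted p = 0.0136). The ranges overlapped in tumor 4, and Lig1, the ligase that seals the fragments, rose 1.59-fold.

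The 4 deoxynucleotide genes all rose, with a median change of 0.83. Rrm1, the large subunit of ribonucleotide reductase, had 38.3, 80.2 and 93.1 TPM in normal, 60.9, 70.6 and 117 in PanIN and 78.0, 121 and 165 in tumor lines, a fold of 1.65 (log2 change 0.72 ± 0.20 (SE), adjusted p = 0.0125). Its small subunit gene Rrm2 rose 1.92-fold (log2 change 0.94 ± 0.26 (SE), adjusted p = 0.0116). Tk1, the thymidine salvage kinase, had 19.1, 51.5 and 59.4 TPM in normal, 40.9, 55.5 and 74.0 in PanIN and 53.1, 84.8 and 112 in tumor lines, with only tumor 4 within the normal range. It rose 1.91-fold (log2 change 0.93 ± 0.22 (SE), adjusted p = 0.0046). Tyms, which makes thymidylate, rose 1.401-fold; its near-identical row Tyms-ps stood at 0.09 to 0.7 TPM, and reads could be split between them.

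Of the 2 E2F activator genes, E2f2 rose and E2f1 did not pass. E2f2 had the largest fold of the 50 genes, 2.10 (log2 change 1.07 ± 0.24 (SE), adjusted p = 0.0039), at low levels: 1.1, 1.28 and 2.69 TPM in normal, 0.84, 2.41 and 5.75 in PanIN and 2.53, 5.0 and 6.54 in tumor lines. The ranges overlapped between tumor 4 and normal 10. E2f1 had 3.28, 4.33 and 5.72 TPM in normal, 2.71, 3.24 and 5.17 in PanIN and 3.82, 5.98 and 7.31 in tumor lines (log2 change 0.32 ± 0.15 (SE), adjusted p = 0.0915). Since 1 is added to each TPM, folds of genes this low are understated.

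The chromatin genes had 2 of 3 called, both of them subunits of chromatin assembly factor 1, which deposits histones on new DNA. Chaf1a had 8.38, 14.2 and 16.4 TPM in normal, 8.40, 12.1 and 21.3 in PanIN and 12.2, 21.2 and 28.3 in tumor lines (1.54-fold, log2 change 0.62 ± 0.20 (SE), adjusted p = 0.0239). Chaf1b had 18.9, 33.7 and 49.4 TPM in normal, 27.8, 32.0 and 44.4 in PanIN and 38.3, 47.6 and 67.1 in tumor lines (1.42-fold, log2 change 0.51 ± 0.19 (SE), adjusted p = 0.0439). Uhrf1, which brings the maintenance methyltransferase to newly copied DNA, had 23.9, 36.0 and 52.2 TPM in normal, 22.6, 28.8 and 53.0 in PanIN and 30.5, 53.7 and 63.4 in tumor lines, and did not pass (log2 change 0.44 ± 0.20 (SE), adjusted p = 0.102).

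**Figure D2:**
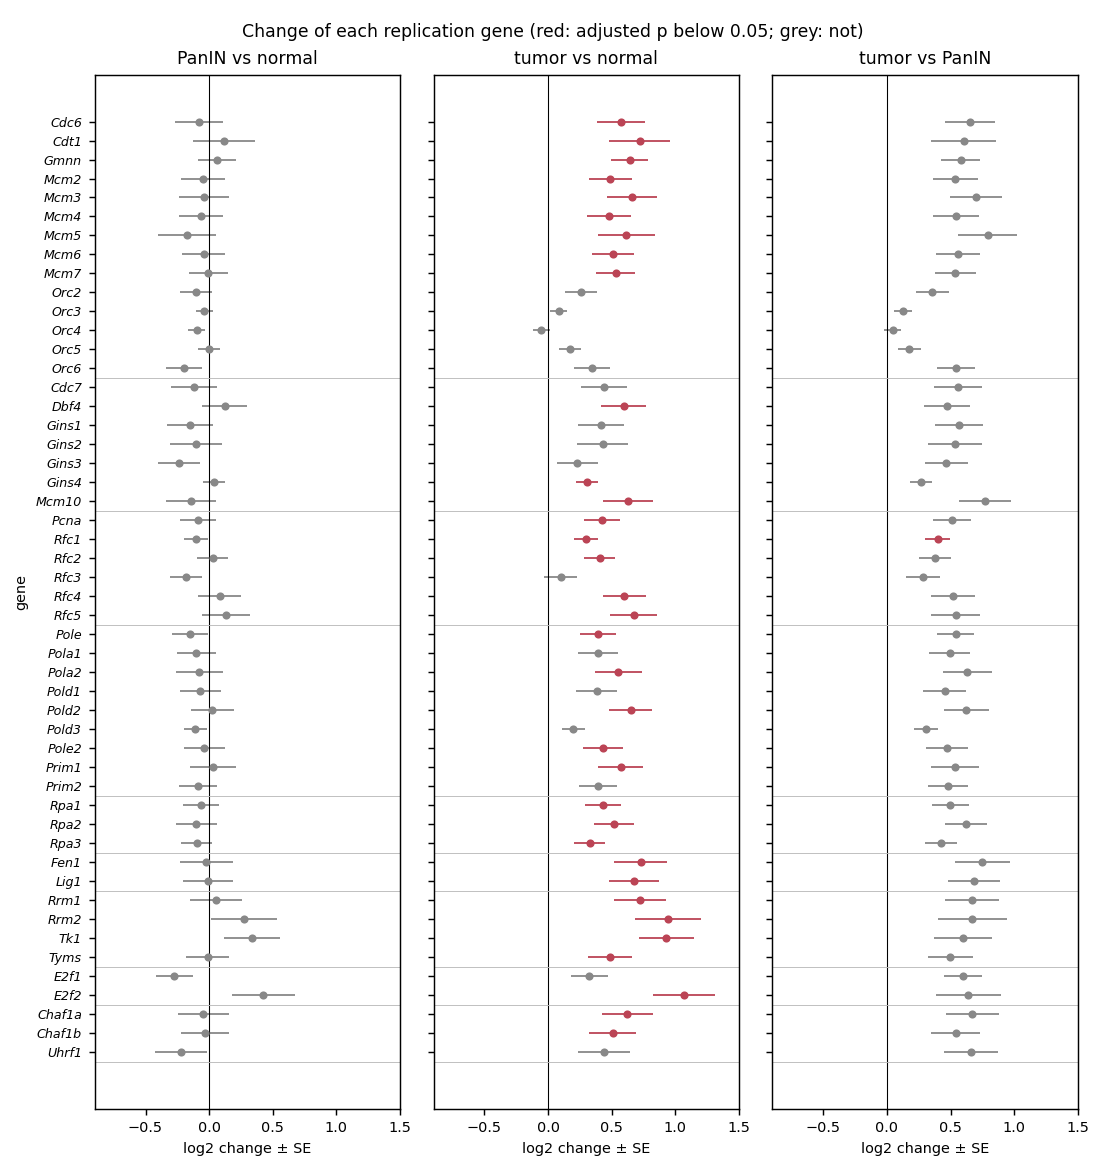
Each point is a gene's log2 change of TPM + 1 in the limma fit with its standard error, in 3 panels by comparison (red for an adjusted p under 0.05, grey otherwise), genes by role. In the tumor against normal panel 34 points are red and right of 0, in the tumor against PanIN panel every point is right of 0 but only Rfc1 is red, and in the PanIN against normal panel none is red.

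**Figure D3:**
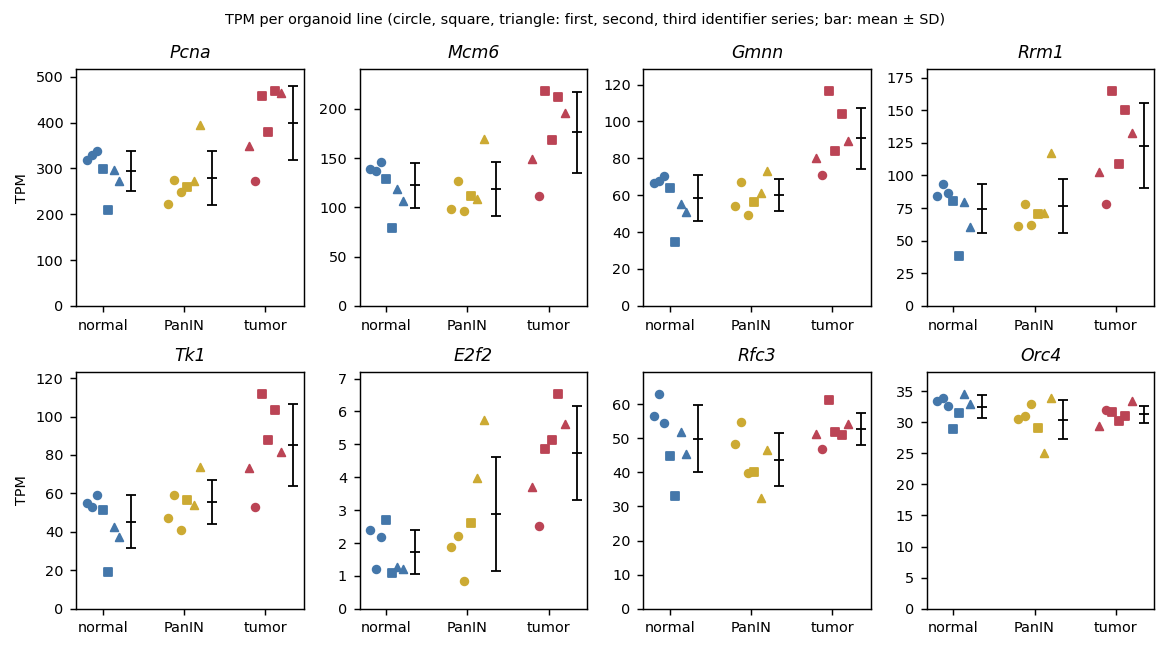
TPM of 8 genes in each organoid line, by group, with marker shape for the identifier series and bars for the group mean and standard deviation (n = 7, 6 and 6). For Pcna, Mcm6, Gmnn, Rrm1, Tk1 and E2f2 most tumor lines lie above the normal lines and the circle of tumor 4 lies lowest, while Rfc3 and Orc4 show tumor values within the normal range.

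The number of calls moved with single lines. It was 46 of 50 without tumor 4 (38.9% of all genes), 18 without normal 11 (26.1%), 21 without normal 13 (26.3%), 15 without tumor 5 (23.6%), 13 without tumor 8 (21.3%) and 16 without tumor 9 (23.2%). With the identifier series as a term 22 members passed (29.0% of all genes), all of them among the 34. After the 11 dominant rows were removed and the rest rescaled, 25 members passed (30.4% of all genes), again all higher and among the 34, while the share of higher calls among all called genes went from 55.1% to 37.4%.

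Between PanIN and normal lines none of the 50 genes passed, in either direction, where 6.78% of all genes did (3.1% higher and 3.68% lower). No member's groups lay wholly apart, as those of 1.26% of all genes did higher and of 1.79% lower. At an unadjusted limma p under 0.05 the count was also 0, against 19% of all genes. The median change was -0.06, against -0.03 over all genes, and 37 of the 50 values were negative. The most negative value was that of E2f1 (log2 change -0.27 ± 0.15 (SE), adjusted p = 0.323) and the most positive that of E2f2 (0.43 ± 0.24 (SE), adjusted p = 0.374). Tk1 followed at 0.33 ± 0.22 (SE), with an adjusted p of 0.454, and PanIN 6, the highest PanIN line for each of these, is the line that stood apart. For Pcna the change was -0.09 ± 0.14 (SE) and for Mcm6 -0.04 ± 0.17 (SE), errors that leave room for differences in either direction. Without normal 11 and PanIN 6, a choice made after seeing the data, 1 gene passed, Gins3, as lower in PanIN (5.01% of all genes).

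Between tumor and PanIN lines all 50 changes were positive, with a median of 0.54 (0.06 over all genes), yet 1 gene passed. That gene was Rfc1, at 1.32-fold (log2 change 0.40 ± 0.10 (SE), adjusted p = 0.0479); 0.392% of all genes were called higher and 1.21% lower (1.6% in all). No member's groups lay wholly apart, against 0.832% of all genes higher and 0.968% lower in tumor lines. At an unadjusted limma p under 0.05 the members' count was 47, against 29.7% of all genes. Several came close to the threshold: E2f1 at 1.51-fold (adjusted p = 0.0500), Gmnn at 1.49-fold (0.0558), Rpa2 at 1.54-fold (0.0587) and Mcm10 at 1.71-fold (0.0592). The largest change was that of Mcm5 (log2 change 0.79, adjusted p = 0.0664). The comparisons of tumor lines with normal and with PanIN lines share the 6 tumor lines.

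This comparison depended most on single lines. With 1 line left out at a time, none of the 50 passed in 13 of 19 fits, namely without normal 5, 6, 7, 12 or 13, PanIN 1, 2, 3, 4 or 5, or tumor 5, 8 or 9. Rfc1 lost its call in those 13 and, over all 35 alternatives, in 21, with an adjusted p from 0.0013 to 0.451. With the PanIN and tumor lines fitted alone, the 1 gene called was Gmnn and not Rfc1. Without PanIN 6, the highest PanIN line, 45 of the 50 passed as higher (22.7% of all genes), and without tumor 4, the lowest tumor line, 45 passed (19.2% of all genes). Without normal 11, which is in neither group compared but enters the shared estimate of spread and the filter, 30 passed (6.33% of all genes). With PanIN 6 and normal 11 both left out, chosen after seeing the data, 46 passed (24.2%). With weights per line 48 passed (39.1%), and with the identifier series as a term 0 passed (0.52%).

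**Figure D4:**
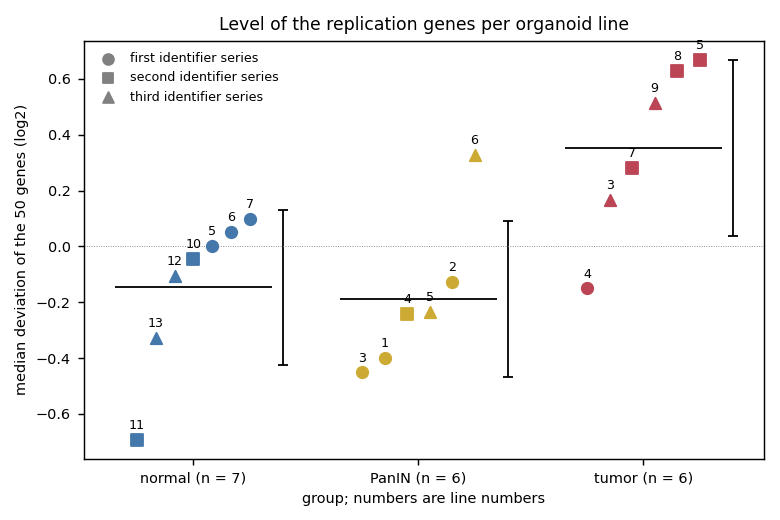
Each point is 1 organoid line (number beside it): the median over the 50 genes of log2(TPM + 1) minus the gene's mean over all lines, by group, with marker shape for the identifier series, a horizontal line for the group mean and a bar for its standard deviation. The mean was -0.15 in normal, -0.19 in PanIN and 0.35 in tumor lines; tumor 4, the only tumor line of the first series, lies lowest of its group at -0.15.

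Within the identifier series the direction was not the same. In the first series the median member change from normal to tumor, with 1 tumor line against 3 normal lines, was -0.23, and 46 of the 50 values were negative. In the second series (3 against 2) it was 0.91 with all 50 positive, and in the third (2 against 2) 0.56 with 49 positive. Over all genes these medians were -0.05, 0.09 and 0.06. Pcna changed by -0.27, 0.79 and 0.50 in the 3 series in turn and Mcm6 by -0.33, 0.97 and 0.60. Orc4 changed by -0.06, 0.04 and -0.10.

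A fit of the difference in tumor change between the first and the other series called none of the 50, where 0.016% of all genes were called. At an unadjusted limma p under 0.05 it had 45 members, against 18.9% of all genes, all 50 differences were negative, and the smallest adjusted p was 0.194. The smallest p among members was that of Pold1, with -0.43 in the first series and 0.67 in the others. As the first series has a single tumor line, tumor 4 and the series cannot be told apart in it. This fit was chosen with earlier results of these data known. In those, the tumor change of cell cycle genes went the other way in the first series.

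From normal to PanIN the first series (3 against 3) had a median member change of -0.37 with 0 of 50 positive. The second (1 against 2) had 0.10 with 40 positive and the third (2 against 2) 0.27 with 44 positive. E2f2 changed by -0.16, 0.37 and 1.36 and E2f1 by -0.70, -0.20 and 0.29 in the same order. The difference between the first and the other series, a fit added after seeing these values, called 0 of 50 (0.032% of all genes), with 34 members at an unadjusted p under 0.05 (17.1% of all genes) and a smallest adjusted p of 0.180. In the second and the third series alone, also added after seeing the data, 1 member passed as higher in PanIN, E2f2 (5.57% of all genes), and 45 passed between tumor and normal lines (37.7%).

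From PanIN to tumor the medians of the 3 series were 0.15, 0.76 and 0.30, with 47, 50 and 49 of the 50 positive. The PanIN and the normal lines of the second series number only 1 and 2, so its values rest on few lines. Normal 11 belongs to the second series and PanIN 6 to the third.

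The members also varied together among lines within groups, with all groups pooled. After group means were removed, the median Pearson correlation over 1225 pairs of members was 0.84 across the 19 lines, and 1102 pairs were above 0.5. These are correlations across lines that share the same TPM scaling, given as a description. With the mean of the other 49 genes, 41 members had a correlation above 0.8, led by Mcm6 (0.99), Fen1 (0.99), Rrm1 (0.98) and Mcm5 (0.98). The loosest were Orc4 (0.20), Orc3 (0.47), Orc5 (0.57) and Rfc3 (0.60), followed by Rpa3 (0.73), Orc2 (0.74) and E2f2 (0.76). Of all tested genes 7.86% had a correlation beyond 0.8 in size with that mean.

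**Figure D5:**
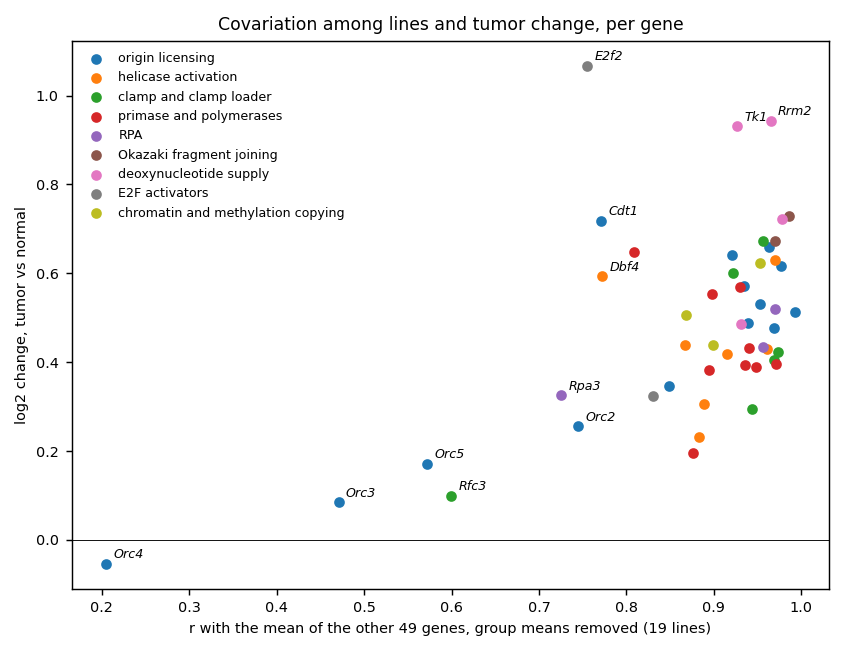
Each point is 1 of the 50 genes, coloured by role: the horizontal axis is its correlation with the mean of the other 49 across 19 lines after group means were removed, the vertical axis its log2 change between tumor and normal lines. Orc4, Orc3, Orc5 and Rfc3 lie at the lower left, and E2f2 has the largest change at a correlation of 0.76.

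The genes outside the set that followed its mean most closely were Nup107 (0.98), a nuclear pore gene, Dnmt1 (0.98), the maintenance methyltransferase, Trip13 (0.98), a checkpoint ATPase, Chek1 (0.98), the replication checkpoint kinase, and Dut (0.98), which removes dUTP. Espl1 (0.98), the separase gene, Suv39h1 (0.98) and Hat1 (0.97), histone-modifying enzymes, the histone chaperone gene Nasp (0.97) and the kinetochore gene Zwilch (0.97) came next. They were ranked by Pearson correlation over the same 19 lines. Of these 10 genes, Nup107, Dnmt1, Trip13, Dut, Suv39h1, Hat1 and Nasp rose between normal and tumor lines. Their folds lay between 1.31 for Hat1 and 1.66 for Trip13, and 17.8% of all genes tested rose in that comparison.

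Related genes outside the 50 were counted in the same comparison of tumor with normal lines, in which 17.8% of all genes rose and 14.4% fell. Of 26 tested other fork and origin factors, 9 rose and 0 fell. Among them were Dna2, a nuclease of the lagging strand (1.61-fold), Usp1, which removes ubiquitin from PCNA (1.51-fold), and Donson, a helicase activation factor (1.45-fold). Of 18 other nucleotide synthesis genes, 12 rose and 0 fell, with the folate enzyme genes Mthfd2 (1.95-fold), Mthfd1 (1.59-fold) and Shmt1 (1.48-fold) first by p. Of 18 other E2F, retinoblastoma and G1/S genes, 9 rose and 0 fell, with Skp2, a subunit of the ligase that degrades p27 (1.66-fold), E2f4 (1.39-fold) and Mybl2 (2.02-fold) first. Among 11 other chromatin copying genes 8 rose, including Nasp, Mms22l (1.37-fold) and Asf1b (1.64-fold), and 1 fell, the remodeller gene Smarcad1 (1.25-fold lower). Of 20 mitosis genes, 9 rose and 0 fell, with a median change of 0.60: Cenpa, a centromeric histone (1.77-fold), Cdk1, the mitotic kinase (1.62-fold), and Birc5, a chromosomal passenger (1.85-fold). None of these genes passed between PanIN and normal lines.

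Of the 7 cell cycle inhibitor genes, 4 were higher and 1 lower in tumor lines. Cdkn2a, which encodes p16 and p19Arf, had 44.6, 53.3 and 67.1 TPM in normal, 48.2, 75.9 and 91.3 in PanIN and 80.8, 95.4 and 129 in tumor lines. It was 1.79-fold higher in tumor than in normal lines (adjusted p = 0.00062), without overlap. Cdkn2c (1.56-fold) rose as well, and so did Cdkn2d (1.46-fold) and Cdkn1c (1.46-fold), which are named here after their values were seen. Cdkn1a encodes p21, an inhibitor of cyclin-dependent kinases that p53 induces. It had 34.2, 49.5 and 74.1 TPM in normal, 64.9, 86.7 and 89.3 in PanIN and 22.3, 34.7 and 47.0 in tumor lines. It was 1.54-fold lower in tumor than in normal lines (log2 change -0.62 ± 0.19 (SE), adjusted p = 0.0173), and 2.35-fold lower than in PanIN lines (adjusted p = 0.0029), where the groups did not overlap. Its change from normal to PanIN was 0.61 ± 0.19 (SE), with an adjusted p of 0.0549. The inhibitors' median correlation with the mean of the replication genes across the 19 lines was 0.16, from -0.55 for Cdkn2b to 0.91 for Cdkn2c. That of the mitosis genes was 0.92 (0.76 to 0.97) and that of the other fork factors 0.87 (-0.68 to 0.96).

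Of the members with the E2F letters in a promoter window, 9 of 16 rose between normal and tumor lines, with a median change of 0.48. Of those matched but without the letters, 20 of 26 rose, with a median of 0.51. Of all genes tested, 17.8% rose in the same comparison, with a median of 0.04. The difference between members with and without the letters was not tested. Orc3 and Rfc3, whose windows hold the letters shown above, changed by 0.09 and 0.10, and E2f2, which has them too, by 1.07.

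The authors' deposited table gave a similar tumor count and a larger one against PanIN. At an adjusted p under 0.05 in the authors' deposited table, the tumor lines had 37 members higher than the normal lines (19.5% of all genes), and these included the 34 called here. The 3 further genes were Cdc7, Pold1 and Prim2, with adjusted p of 0.0381, 0.0454 and 0.0333 in the authors' deposited table. Between tumor and PanIN lines, 28 members were higher in the authors' deposited table (5.19% of all genes), Rfc1 among them, and between PanIN and normal lines 0 were (6.06% of all genes).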

How the data were processed

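RNA was measured by stranded, ribosomal-RNA-depleted total RNA sequencing in 19 organoid lines (7 normal, 6 PanIN, 6 tumor). The authors deposited 1 table of TPM per line, with the log2 fold change, its error, the test statistic (a score), p-value and adjusted p-value of their own comparisons, per the file headers. The 3 columns of base means were not used here. The submitters' processing notes name FastQC, Bowtie 1.1.0, RSEM 1.2.11, DESeq, DESeq2 1.4.1 and build mm9; the annotation used is unstated there. TPM keeps no depth, so no counting error can be given, and overlapping or near-identical genes may share reads.

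Genes with a TPM of at least 1 in at least 6 lines were kept. log2(TPM + 1) was fitted with limma 3.58.1 (R 4.3.3): 1 mean per group over all 19 lines, eBayes with a trend, and Benjamini-Hochberg adjustment over 12500 genes within each of 3 comparisons, with a call at an adjusted p under 0.05. Folds come from log2(TPM + 1), so they are too small for low genes. The scripts were tested on simulated data.

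Members, roles and lists were chosen with earlier results of these data known. In each role, full values are given for the gene with the highest mean TPM and for the gene with the smallest p in each comparison, and for genes called against PanIN. Other genes are the 3 of smallest p per list and the 10 outside the set that correlate best with the members' mean. Rrm2, Orc2, Orc3, Orc6, Mcm5 and the other members named with a fold only lie outside that rule. The first identifier series was compared with the others by an interaction term in limma, chosen with earlier results of these data known. Alternatives were other pseudocounts, filters, scalings, variance settings, covariates and left-out lines, with 2 sets of left-out lines and the PanIN interaction added after seeing the data. Some alleles of these mice are not reported here.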

Additional observations from a re-analysis of the deposited data

Results flagged for a closer look

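In 105 groups of lines, 75 of them single genes in 1 group, the highest and the lowest line were compared with the rest, and a line was set apart where its gap to the next line took more of the group's range than Dixon's 95% value allows. Chance alone sets a line apart in about 1 in 20 groups, and the genes share the same lines. In all, 14 groups had such a line: PanIN 6 in 9 and normal 11 in 5, and no tumor line in any.

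PanIN 6 was far above the other PanIN lines in Pcna, the clamp gene, at 394.67 TPM (next line 275.06), in Fen1 at 58.87 TPM (next 33.15), in Rrm1 at 117.25 TPM (next 78.01) and in Uhrf1 at 53.04 TPM (next 32.08). The same held for the polymerase gene Pole at 18.16 TPM (next 13.29) and for Gins3 at 8.24 TPM (next 5.1). By role, its median deviation from the gene means stood apart at 0.557 for the Okazaki fragment genes, 0.297 for primase and polymerases and 0.288 for RPA.

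Normal 11 was far below the other normal lines in Gins3 at 3.66 TPM (next line 6.01), Gins4 at 33.34 TPM (next 42.96), the loader gene Rfc5 at 31.59 TPM (next 56.78) and the primase gene Prim1 at 24.22 TPM (next 46.48). Its median deviation over the helicase activation genes was -0.760 (next -0.195).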

How the results depend on the processing

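The median member change kept its sign in every setting between tumor and normal and between tumor and PanIN lines, and left-out lines moved it from 0.38 to 0.59 and from 0.47 to 0.65. Between PanIN and normal lines it was -0.16 to -0.01 over left-out lines, 0.005 with a replicate block and 0.23 in the second and the third series alone.

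The 34 calls between tumor and normal lines became 22 with the identifier series as a term and 27 with sex (27.6% of all genes). Females were 5 of the 7 normal and 3 of the 6 tumor lines. The calls were 25 without a filter (20.3% of all genes) and 45 with line weights (39.9%). They ranged from 13 (without tumor 8) to 46 (without tumor 4) over left-out lines. Those between tumor and PanIN lines, 1 in the fit reported, were 0 with a pseudocount of 0.1, without a filter, without a variance trend, with series or sex as a term and in the second and the third series alone. They were 2 after rescaling (1.66% of all genes), with median-of-ratios scaling (2.39%) and with a robust variance estimate (1.71%), and 3 with quantile normalization (2.66%). They were 48 with line weights and 46 without normal 11 and PanIN 6, and ranged from 0 (in 13 of 19) to 45 over left-out lines. Between PanIN and normal lines the 0 calls became 1 without normal 11 and PanIN 6 and 1 in the second and the third series alone, and stayed 0 over left-out lines. The causes were not tested.

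With line number as a replicate block the 34 calls became 0 and the 1 call became 0. The labels do not say what the shared numbers mean, and they were treated as names of lines. The correlation of same-numbered lines ranged from -0.307 to 0.247, and no line correlated best with its own number. These values cannot settle whether the numbers pair lines, so the block fit does not settle the size of the effect. Of 874 values of single named genes per comparison, 96 lost and 9 gained a call against normal lines, 21 and 114 between tumor and PanIN, and none changed sign with a call. The fit of the series difference could not be made without tumor 4.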
